A study of Mus musculus with 4 samples.

Results

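The genes described here are 8 imprinted genes that regulate growth, namely Meg3, Grb10, Igf2r, Cdkn1c, Ndn, Plagl1, Mest and Impact. They were chosen by symbol from the 27998 genes of the count tables, and each symbol matched a single gene. Their RNA was counted in LSK cells, the Lin-Sca1+cKit+ fraction of mouse bone marrow that holds the hematopoietic stem cells and the multipotent progenitors. The study compared 2 control libraries (labelled wild-type) with 2 Nup358 KO libraries to learn how the nucleoporin Nup358 acts in blood formation. Each library was made from a pool of 3 bone marrows of individual mice aged 9 to 12 weeks, so the error is that between pools. In the study's methods the controls carried the floxed Nup358 fl/fl allele, and its bone marrow comparisons gave tamoxifen to both genotypes, on 3 consecutive days for the deletion, although the treatment of these libraries is not stated separately. The knockout mice also carried R26-CreERT2, a tamoxifen-regulated Cre recombinase made in all tissues, so the deletion was not limited to blood cells and an effect of the Cre itself cannot be told apart from that of the deletion. The RNA was captured at its 3′ end and counted as unique molecular identifiers (UMIs), which stand for single captured molecules.

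An imprinted gene is expressed mainly from a single parental allele, and the choice is set by DNA methylation of imprinting control regions in the germ line. Many genes of this class act on growth of the fetus and placenta, and maternally expressed members often restrain growth. Several of them are known for their high expression in quiescent hematopoietic stem cells, among them Meg3, a long noncoding RNA of the Dlk1 locus, and Cdkn1c, which encodes the cyclin-dependent kinase inhibitor p57. Grb10 encodes an adaptor that binds the insulin and IGF1 receptors and limits their signaling. Igf2r encodes the receptor that takes IGF2 and mannose-6-phosphate-tagged enzymes to lysosomes. Ndn encodes necdin, a growth suppressor that binds E2F1, Plagl1 encodes a zinc finger transcription factor, Mest encodes a hydrolase-like protein, and Impact encodes an inhibitor of the amino acid sensor GCN2. The counts do not distinguish the parental alleles, so nothing here measures imprinting itself.

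In the GENCODE annotation of GRCm38, the build of the files, Meg3 lies on chromosome 12 from 109541001 to 109571726 on the plus strand and is a long noncoding RNA gene. The 7 others are protein-coding genes. Grb10 lies on chromosome 11 from 11930508 to 12038683 and Igf2r on chromosome 17 from 12682406 to 12769664, both on the minus strand. Cdkn1c (143458339 to 143461050, minus strand) and Ndn (62346569 to 62350262, plus strand) are on chromosome 7. Plagl1 is on chromosome 10 from 13060504 to 13131694 and Mest on chromosome 6 from 30723547 to 30748465, both on the plus strand. Igf2r overlaps the antisense RNA Airn (186 UMIs in all kept cells), and Mest overlaps Copg2 on the opposite strand (4894 UMIs).

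The start regions of 3 members are shown because the results turn on these genes and because CG dinucleotides, printed in capitals, are the bases whose methylation marks imprinted promoters. Each is 300 bases long, from 250 bases before to 50 after a start, taken from RefSeq on GRCm38.p6. Meg3 (chr12:109540746-109541045, plus strand) holds 13 CG at its first start (its second start, from 109545148 to 109545447 and not printed, holds 1), Ndn (chr7:62348027-62348326, plus strand) holds 11, and the Grb10 starts (chr11:12037371-12037670 and chr11:12027922-12028221, minus strand) hold 45 and 9. The median over 32851 promoters was 7, and 1.93% of them held as many as the first Grb10 start. These promoters were searched on both strands for GGGGCCCC, a motif bound by PLAGL1, and for AGATAA, a form of the GATA motif. None of the 10 promoters found for 6 members held either, against 1.08% and 11.2% of all promoters, and the 3′ counts do not say which start a transcript used. Other forms of the GATA motif, such as the AGATAG in the second Grb10 start, were not searched for.
Meg3: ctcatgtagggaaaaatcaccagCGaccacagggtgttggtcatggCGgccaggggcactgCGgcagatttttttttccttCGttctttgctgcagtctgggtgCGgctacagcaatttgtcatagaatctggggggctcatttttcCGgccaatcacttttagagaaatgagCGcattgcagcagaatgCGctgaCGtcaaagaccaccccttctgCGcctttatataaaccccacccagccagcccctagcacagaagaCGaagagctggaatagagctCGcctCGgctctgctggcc
Ndn: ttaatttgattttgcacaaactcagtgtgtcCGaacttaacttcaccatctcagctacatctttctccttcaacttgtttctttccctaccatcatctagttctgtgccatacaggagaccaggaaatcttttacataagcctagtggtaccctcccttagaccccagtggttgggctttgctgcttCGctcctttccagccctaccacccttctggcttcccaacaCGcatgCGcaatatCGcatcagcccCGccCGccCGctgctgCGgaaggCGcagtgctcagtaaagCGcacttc
Grb10, first start: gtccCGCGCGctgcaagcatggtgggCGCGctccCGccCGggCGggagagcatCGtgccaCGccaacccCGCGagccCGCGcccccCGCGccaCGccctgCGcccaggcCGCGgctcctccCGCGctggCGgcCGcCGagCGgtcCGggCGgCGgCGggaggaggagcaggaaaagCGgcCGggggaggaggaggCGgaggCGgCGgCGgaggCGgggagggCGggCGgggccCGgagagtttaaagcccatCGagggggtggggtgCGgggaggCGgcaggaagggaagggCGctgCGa
Grb10, second start: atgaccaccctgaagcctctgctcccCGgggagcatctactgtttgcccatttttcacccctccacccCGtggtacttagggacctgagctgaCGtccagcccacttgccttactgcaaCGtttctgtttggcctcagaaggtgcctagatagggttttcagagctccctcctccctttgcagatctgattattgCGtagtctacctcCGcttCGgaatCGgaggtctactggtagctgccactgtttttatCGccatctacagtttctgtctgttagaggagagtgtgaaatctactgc

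Barcodes were shared between libraries and were dealt with before any level was computed. The deposited files held 25242 barcodes, and 6680 barcode sequences were found in several libraries at once (1138 in each of the 4). A shared barcode was kept only in the library where it had the most UMIs, which left out 10942 barcodes (43.3%) and kept 14035 cells. The copies made up 81.8% of the barcodes of control replicate 2 and 65.3% of knockout replicate 1, but only 24.6% and 8.58% of their UMIs, and 14.8% and 18.8% of the barcodes of the remaining libraries. The kept cells numbered 7826 and 1200 in the controls and 1588 and 3421 in the knockouts, with 18846887 to 59008457 UMIs per library and a median of 6251 to 17708 UMIs per cell. The deletion removes exon 2 of Nup358 (Ranbp2 in the files), which 3′ counts do not read, and Ranbp2 was at 128 and 102 CPM, UMIs scaled to a common library total, in the controls and 121 and 126 CPM in the knockouts, so it does not check the labels.

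Cells with at least 3000 UMIs (12508 cells) were gated on marker genes, none of them a member. The stem-like gate took 1589 cells, and gates for early lineage expression took 612 megakaryocyte-primed, 236 erythroid-primed, 2892 neutrophil-primed and 614 lymphoid-primed cells, while 6181 cells fell in no gate. The rest passed more than 1 primed gate or were left out as other cells, with at least 2 markers from a list such as Cd79a, Cd3e, Siglech and Camp. These other cells made up 0.416% and 1.52% of control and 4.75% and 5.76% of knockout cells at this depth. They stay in the sums over all LSK cells. Genes that were not used for gating checked the names, and levels of marker and handling genes are given as CPM of the gate's total without TMM factors. Gata1 averaged 98.8 CPM in erythroid-primed and 64.4 CPM in megakaryocyte-primed cells against 4.65 CPM in stem-like cells, Vwf averaged 51.7 CPM in megakaryocyte-primed cells, Mpo 3755 CPM in neutrophil-primed cells and Flt3 139 CPM in lymphoid-primed cells. The name stem-like rests on its markers alone, since Mycn was at 17.3 CPM there and at 22.9 CPM in megakaryocyte-primed cells, Flt3 averaged 48.0 CPM there, and 4613 cells lay within 1 marker of its limit. Slamf1, which encodes CD150, averaged 8.92 CPM in stem-like, 30.6 CPM in megakaryocyte-primed and 15.9 CPM in erythroid-primed cells. The neutrophil-primed gate held 36.8% and 15.9% of control cells but 7.78% and 3.63% of knockout cells, and the stem-like gate 9.83%, 18.6%, 15.5% and 15.3%. For all other genes UMIs were summed per library and gate and scaled to CPM with TMM factors. Replicate libraries are separate pools, n = 4 libraries for a gate and n = 2 for a genotype.

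Meg3, Cdkn1c and Ndn had their highest mean level in stem-like cells. Meg3 was at 22.4 and 58.8 CPM in the control stem-like cells and at 5.37 and 9.20 CPM in the knockout ones, on 94, 161, 25 and 64 UMIs. No primed gate of any library exceeded the level in the stem-like cells of the same library. Cells in no gate held 522 Meg3 UMIs, at 7.86, 25.15, 3.49 and 2.92 CPM, below the stem-like cells of each library. Their mean of 9.86 CPM was above that of each primed gate. They also held 749 Cdkn1c, 467 Ndn and 1314 Grb10 UMIs, against 491, 419 and 1216 in the 5 gates together. Among the primed gates the lymphoid-primed one came first by mean with 1.73, 12.6, 0 and 3.52 CPM, of which control replicate 2 held the highest. Megakaryocyte-primed cells followed with 3.56, 5.88, 0.616 and 2.80 CPM. Erythroid-primed and neutrophil-primed cells had means of 1.03 ± 0.948 and 0.806 ± 0.931 CPM (SD, n = 4). These 4 primed levels overlapped each other between libraries, and the erythroid-primed one rests on 5 UMIs in all.

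Cdkn1c, the p57 gene, was at 11.4 and 14.6 CPM in control stem-like cells and at 18.5 and 20.7 CPM in knockout ones. Megakaryocyte-primed cells came next with 6.67, 11.8, 12.3 and 11.2 CPM, lower than the stem-like cells in 4 of 4 libraries although the ranges overlapped. The 3 other primed gates had means of 2.67 to 3.34 CPM and overlapped each other between libraries. Ndn followed the same order at its top, with 11.9, 16.4, 14.6 and 16.8 CPM in stem-like cells and 8.0, 5.88, 11.7 and 8.40 CPM in megakaryocyte-primed cells. Here the ranges did not overlap, by 11.9 against 11.7 CPM, and the share of all genes with such a gap is not given. Its means were 3.57 ± 2.99 CPM in erythroid-primed, 2.21 ± 1.08 CPM in lymphoid-primed and 0.991 ± 0.615 CPM in neutrophil-primed cells (SD, n = 4).

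Grb10 had a different order, highest in the erythroid-primed gate and lowest in the lymphoid-primed gate. Erythroid-primed cells were at 17.8 and 17.1 CPM in the controls and 60.4 and 69.3 CPM in the knockouts, and megakaryocyte-primed cells at 22.2 and 20.6 against 46.2 and 45.5 CPM. Within the controls the megakaryocyte-primed mean was the higher, and within the knockouts the erythroid-primed mean was. The control levels rest on 24 and 5 erythroid-primed and 50 and 14 megakaryocyte-primed UMIs. The test of whether the genotype difference of Grb10 varied among gates, given below, did not pass, so a change of order is not shown. Stem-like cells were at 9.04, 20.5, 32.9 and 39.6 CPM, below the megakaryocyte-primed cells in 4 of 4 libraries. Neutrophil-primed cells were at 5.14, 3.38, 10.3 and 21 CPM and lymphoid-primed cells at 1.16, 0.601, 4.86 and 1.92 CPM.

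**Figure D1:**
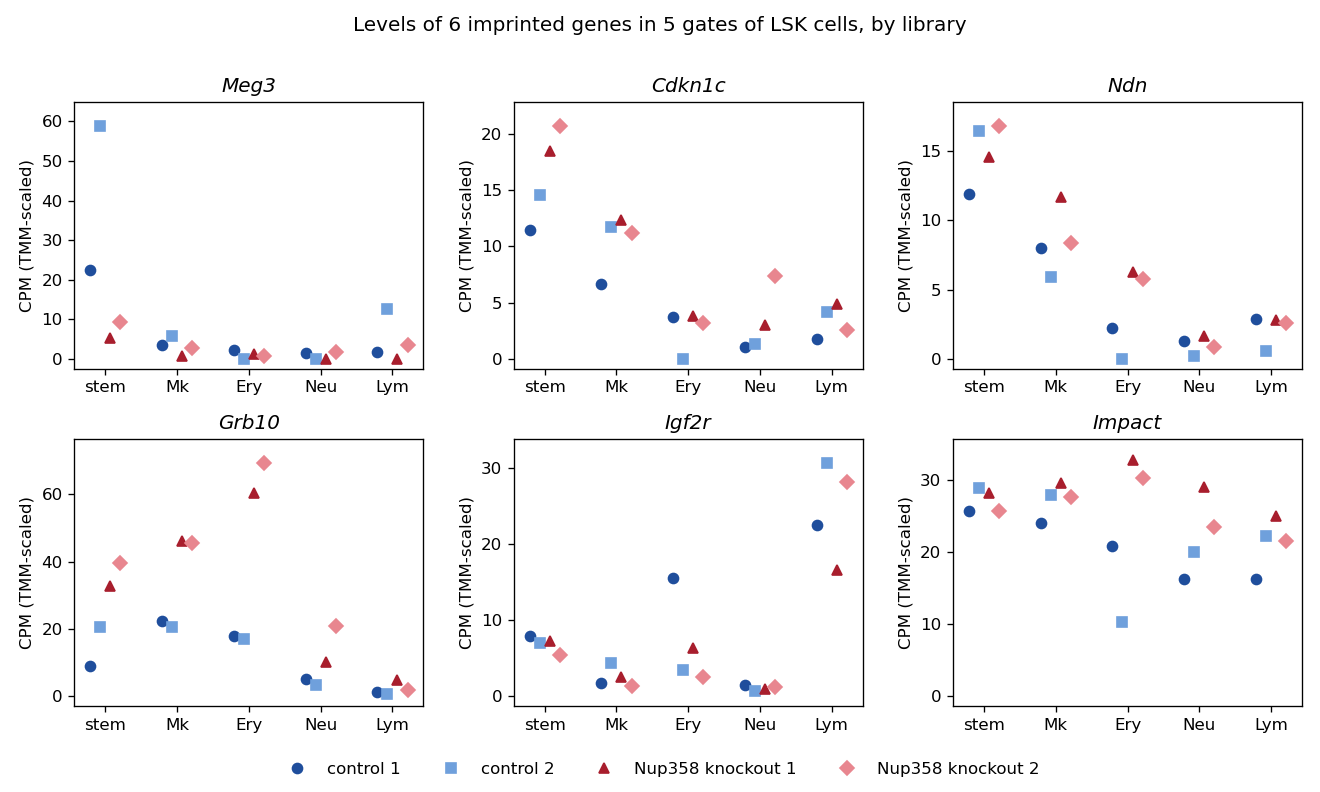
Levels in TMM-scaled CPM (vertical axes, linear, from 0) of 6 members in the stem-like (stem), megakaryocyte-primed (Mk), erythroid-primed (Ery), neutrophil-primed (Neu) and lymphoid-primed (Lym) gates, where each point is 1 library summed over its cells. Meg3, Cdkn1c and Ndn have their highest mean in stem-like cells, Igf2r in lymphoid-primed cells (24.5 CPM), and the knockout points of Grb10 lie above the control points in each gate.

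Igf2r, which encodes the IGF2 receptor, was highest in lymphoid-primed cells, with 22.5 and 30.7 CPM in the controls and 16.6 and 28.2 CPM in the knockouts. These values did not overlap with those of any other gate, but the gap was narrow. The highest value elsewhere was 15.6 CPM, in erythroid-primed cells of control replicate 1. The share of all genes with such a gap between gates is not given here. Stem-like cells were at 7.85, 6.94, 7.31 and 5.47 CPM, a narrow range over libraries. Erythroid-primed cells had nearly the same mean, 6.97 ± 5.96 CPM (SD, n = 4), but control replicate 1 alone held 21 of the 31 UMIs behind it. Megakaryocyte-primed and neutrophil-primed cells were lower, with means of 2.51 ± 1.34 and 1.09 ± 0.335 CPM.

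Impact was the member that varied least between gates. Its mean was 27.3 ± 2.34 CPM in megakaryocyte-primed, 27.1 ± 1.68 in stem-like, 23.5 ± 10.2 in erythroid-primed, 22.2 ± 5.38 in neutrophil-primed and 21.2 ± 3.68 CPM in lymphoid-primed cells (SD, n = 4). Each neighbouring pair in this order overlapped between libraries.

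Plagl1 and Mest were near the limit of detection. Plagl1 had 27 UMIs and Mest 8 UMIs in the 14035 kept cells, and in stem-like cells Plagl1 had 4 UMIs and Mest none, which allows up to 0.175 CPM from 3 counts over the summed libraries. Both fell below the filter on low counts in each comparison, so 6 of 8 members could be tested at most. Igf2, the growth factor that the Igf2r protein clears, had 5 UMIs and H19, its neighbour and the source of a noncoding RNA, had 16. Dlk1, the protein-coding neighbour of Meg3, had 731 UMIs.

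The stem-like cells were compared with each primed gate by edgeR's quasi-likelihood test with the library as a block and Benjamini-Hochberg adjustment over all genes tested. Meg3, Cdkn1c and Ndn were higher in stem-like cells than in each of the 4 primed gates. Against megakaryocyte-primed cells the difference of Meg3 was 2.60 ± 0.27 on the log2 scale (SE, adjusted p = 1.36e-07), that of Ndn 0.77 ± 0.21 (adjusted p = 0.00934) and that of Cdkn1c 0.74 ± 0.18 (adjusted p = 0.00569). Igf2r was also higher, by 1.72 ± 0.35 (adjusted p = 0.000872), and Grb10 was lower, by -0.42 ± 0.14 (adjusted p = 0.0429). These 5 calls among 6 members tested stand beside 18.8% of all 10084 genes called in this comparison, 10.3% higher and 8.52% lower. The Grb10 call was not stable, as its difference was 0.16 (adjusted p = 0.665) when 1 more marker UMI was required for a gate.

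Against the 3 other primed gates the differences were larger for most members. Against erythroid-primed cells Meg3 was higher by 3.72 ± 0.45, Cdkn1c by 2.37 ± 0.35 and Ndn by 1.82 ± 0.36 on the log2 scale, and Grb10 was lower by -0.75 ± 0.18 (adjusted p = 8.34e-05, 0.000378, 0.00233 and 0.00784 in edgeR). Igf2r (-0.04 ± 0.39) and Impact (0.09 ± 0.22) did not pass, and 31.3% of all genes were called (15.9% higher, 15.4% lower). Against neutrophil-primed cells 5 of 6 members were higher, from Meg3 at 4.55 ± 0.49 and Ndn at 3.74 ± 0.31 to Grb10 at 1.40 ± 0.24, in a comparison that called 49.8% of all genes (24.8% higher, 25% lower). Against lymphoid-primed cells Grb10 was higher by 3.77 ± 0.27 (adjusted p = 1.67e-08 in edgeR), with Ndn, Cdkn1c and Meg3 at 2.76, 2.44 and 2.36, while Igf2r was lower by -1.83 ± 0.19 (adjusted p = 2.12e-06), beside 19.5% of all genes (10% higher, 9.44% lower).

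**Figure D2:**
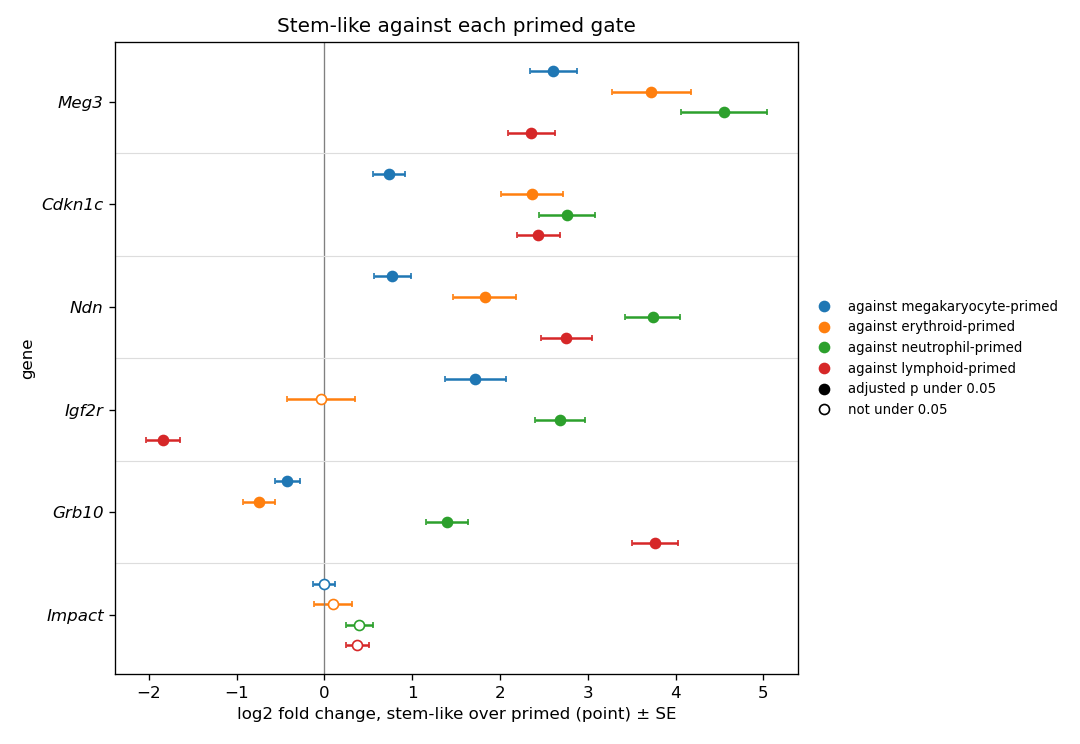
Log2 fold change (horizontal axis) of stem-like over primed cells for 6 members, with 1 colour for each primed gate, bars of 1 SE and filled points for an adjusted p under 0.05. Meg3, Cdkn1c and Ndn lie to the right of 0 against all 4 gates, Igf2r and Grb10 lie on both sides, and Impact lies at 0.40 or below with no call.

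Impact did not pass in any of these comparisons, with adjusted p = 0.0597 against neutrophil-primed and 0.0566 against lymphoid-primed cells in edgeR at differences of 0.40 ± 0.16 and 0.38 ± 0.13. The median difference over the members tested was 0.75 against megakaryocyte-primed, 0.96 against erythroid-primed, 2.72 against neutrophil-primed and 2.40 against lymphoid-primed cells. The filter on low counts keeps a gene that is high enough in 1 gate alone. Within the primed gate itself Meg3 was always too low to be tested. So was Igf2r in all but the lymphoid-primed gate, and Ndn in all but the megakaryocyte-primed gate. Cdkn1c was too low in erythroid- and lymphoid-primed cells and Grb10 in lymphoid-primed cells. Such members entered through the stem-like gate, which favours a higher level there, so these medians are no test of the members as a group. With the copied barcodes kept, no call of a member between stem-like and primed cells changed. Without the library block, the Meg3 difference from megakaryocyte-primed cells was 3.05 with adjusted p = 0.0736, and that from lymphoid-primed cells 2.41 with adjusted p = 0.206. Immediate early genes, which rise when cells are handled, also differed between gates, from summed levels of 724 to 2065 CPM in neutrophil-primed to 1342 to 5429 CPM in stem-like cells over the 4 libraries, and their part in these differences was not tested.

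Between the genotypes, Grb10 was the member with a difference over all LSK cells. It was at 7.68 and 8.18 CPM in the controls and at 20.9 and 25.2 CPM in the knockouts, on 449 to 1361 UMIs in 3 libraries and 152 in control replicate 2. Both knockout libraries lay above both controls, as they did for 26.7% of all genes tested. The log2 difference was 1.54 ± 0.17 (SE, adjusted p = 0.00896 in edgeR). It was the only call among 6 members tested, where 3.44% of all 13779 genes were called, 1.37% higher and 2.07% lower. The difference was 1.30 (adjusted p = 0.0289) with the copied barcodes kept and 1.40 to 1.66 without any one of the 4 libraries. In these sums over all cells, more cells with Grb10 and more Grb10 RNA per cell cannot be told apart, and the neutrophil-primed share, low in Grb10, was smaller in the knockouts.

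Within gates, the knockout libraries were above the controls for Grb10 in 5 of 5 gates. Among the 7792 genes tested in each of the 5 gates, a set without Grb10 because of its low lymphoid count, 4.45% showed this. By gate it was shown by 32.9% of the genes in stem-like, 24.5% in megakaryocyte-primed, 21.9% in erythroid-primed, 19.3% in neutrophil-primed and 27.8% in lymphoid-primed cells. The opposite order was shown by 26.9% of the genes over all LSK cells and, in the same primed gates, by 20.2%, 18.2%, 30.5% and 21.8%. The log2 difference was 1.86 ± 0.33 in erythroid-primed cells (adjusted p = 0.0100 in edgeR), where 1.02% of all genes were called (0.2% higher, 0.825% lower), and 1.83 ± 0.37 in neutrophil-primed cells (adjusted p = 0.0225), where 3.1% were (0.939% higher, 2.16% lower). It was 1.29 ± 0.32 in stem-like cells (adjusted p = 0.0692) and 1.03 ± 0.23 in megakaryocyte-primed cells (adjusted p = 0.0704), which did not pass, although the second did with the copied barcodes kept (1.07, adjusted p = 0.0385). Leaving out control replicate 1 lowered the stem-like difference to 0.77, and leaving out control replicate 2 raised it to 1.96. Either fit keeps a single control, whose spread is unknown, so only sizes are given. The erythroid-primed call rests on 29 control UMIs and was lost in DESeq2 (adjusted p = 0.164). Without control replicate 2 this difference was 1.88. The neutrophil-primed call was lost with the copied barcodes kept (1.53, adjusted p = 0.105), and its difference was 1.27 without knockout replicate 2. The markers of both gates also differed with the genotype. In neutrophil-primed cells they summed to 13608 and 14739 CPM in the controls and 5226 and 5043 CPM in the knockouts, with 4 of 7 called lower, among the markers Elane at 3798 and 3828 against 338 and 304 CPM. In erythroid-primed cells they summed to 3695 and 4193 against 1568 and 2503 CPM, with 5 of 8 called lower. The part of these shifts in the Grb10 differences was not tested. The test of whether the genotype difference of Grb10 varied among gates gave adjusted p = 0.681.

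Meg3 went the other way in stem-like cells. The knockout values of 5.37 and 9.20 CPM lay below the control values of 22.4 and 58.8 CPM, and the log2 difference was -2.46 ± 0.44 (SE, adjusted p = 0.0294 in edgeR), the only call among 6 members in a comparison with 2.1% of all genes called, 0.507% higher and 1.6% lower. Both knockouts lay below both controls for 23.3% of the genes. The controls differed from each other by more than the knockouts did. The difference was -1.61 without control replicate 2, the library with the highest Meg3, and -3.02 without control replicate 1. With a single control left, the spread between controls cannot be estimated, so only these sizes are given. It was -2.11 (adjusted p = 0.0142) with the copied barcodes kept. The call was lost when the gate was set without Ifitm1, its most abundant marker (-2.67, adjusted p = 0.0661). Over all LSK cells Meg3 was at 6.50 and 21.6 CPM in the controls and 2.91 and 3.44 CPM in the knockouts, a difference of -2.12 ± 0.53 that did not pass (adjusted p = 0.0773). Without control replicate 2 this difference was -1.02, and without control replicate 1 it was -2.78. In megakaryocyte-primed cells its knockout values were also the lower ones, but on 21 UMIs in all, too few to be tested, and its difference among gates gave adjusted p = 0.855.

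**Figure D3:**
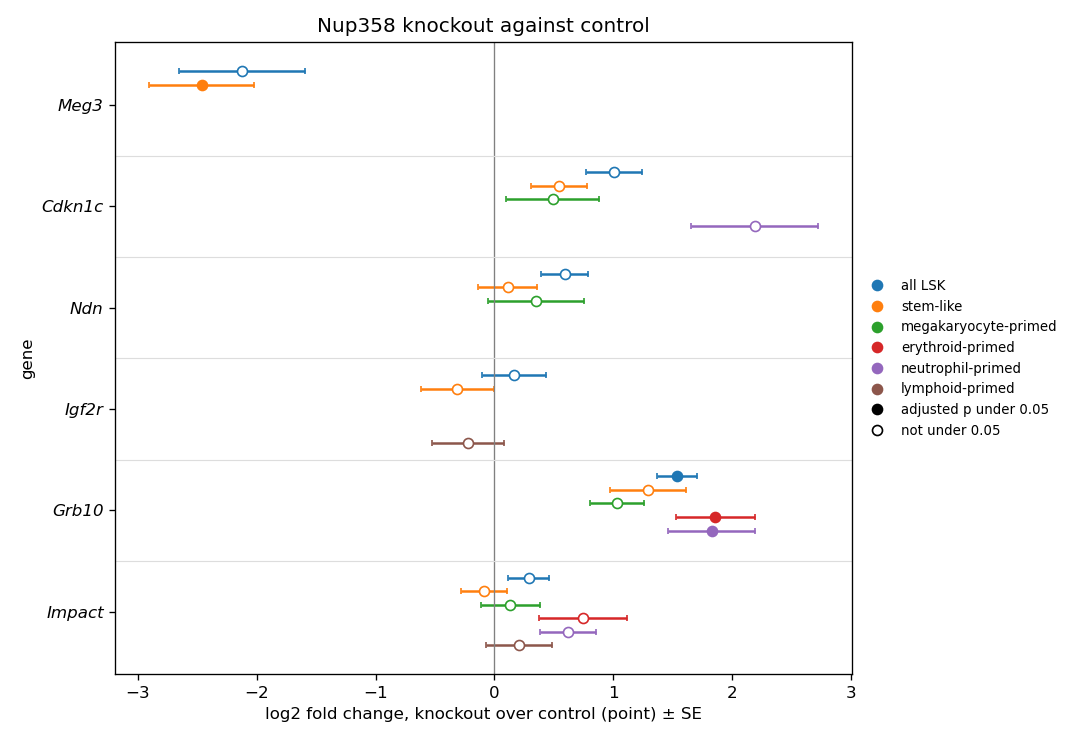
Log2 fold change (horizontal axis) of Nup358 knockout over control for 6 members in all LSK cells and in each gate where the gene could be tested, with bars of 1 SE and filled points for an adjusted p under 0.05. Filled points are Meg3 in stem-like cells (-2.46) and Grb10 in all LSK (1.54), erythroid-primed (1.86) and neutrophil-primed (1.83) cells.

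The Meg3 RNA of the stem-like gate came from few cells. In the controls 52 of 661 and 49 of 221 stem-like cells had a Meg3 UMI, and in the knockouts 8 of 225 and 30 of 482 had one. After each cell was thinned to 3000 UMIs, the shares were 6.05% and 10.9% in the controls and 1.33% and 2.07% in the knockouts, so the order of the genotypes was that of the CPM. The unthinned shares were 7.87% and 22.2% against 3.56% and 6.22% at median depths of 4844, 10127, 15925 and 11854 UMIs. The thinned share in neutrophil-primed cells, taken as background, was 0 to 0.877% (median depths of 10194 to 25675 UMIs). The 10 cells richest in Meg3 held 39.4% and 55.9% of its stem-like UMIs in the controls and all of them and 67.2% in the knockouts, and a single cell of control replicate 2 held 31 UMIs.

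Grb10 RNA was found in more stem-like cells than Meg3 RNA in the knockouts, but in fewer in the controls. Of the stem-like cells, 36 and 43 had a Grb10 UMI in the controls and 98 and 174 in the knockouts, and the 10 richest cells held 31.6% and 41.1% against 22.2% and 13.8% of the UMIs. After thinning, 3.63% and 6.33% of control and 14.2% and 12% of knockout stem-like cells had a Grb10 UMI (5.45%, 19.5%, 43.6% and 36.1% before thinning). The thinned share in neutrophil-primed cells was 1.17%, 0, 1.77% and 2.63%.

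**Figure D4:**
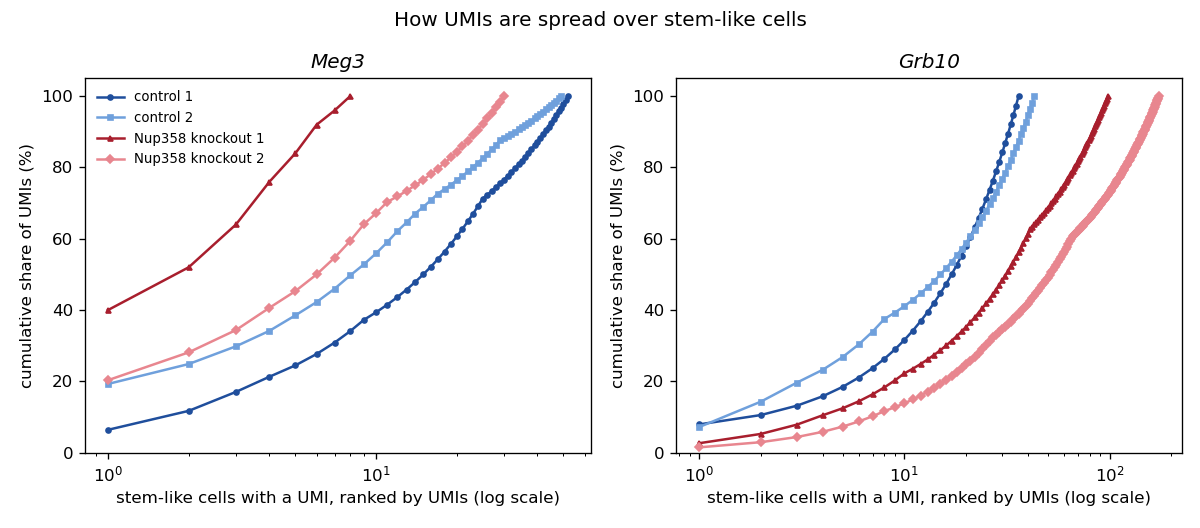
Cumulative share of the Meg3 and Grb10 UMIs (vertical axes, percent) over the stem-like cells that have a UMI, ranked from the richest cell (horizontal axes, log scale), with 1 line for each library. The Meg3 line of knockout replicate 1 ends at 8 cells and that of control replicate 1 at 52, and the Grb10 lines of the knockouts end at 98 and 174 cells.

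The other members showed no call between the genotypes. Cdkn1c was at 4.31 and 6.45 CPM in control LSK cells and 10.5 and 10.8 CPM in knockout cells, a log2 difference of 1.01 ± 0.24 (adjusted p = 0.0676 in edgeR). In neutrophil-primed cells it was at 1.09 and 1.35 against 2.99 and 7.40 CPM, a difference of 2.19 ± 0.53 (adjusted p = 0.0550), on 60 UMIs. This difference passed with the copied barcodes kept (2.12, adjusted p = 0.0484) and was 1.43 without knockout replicate 2. In stem-like cells its difference was 0.55 ± 0.24 (adjusted p = 0.215), and the test across gates gave adjusted p = 0.213. Both knockout libraries were above both controls in these 3 comparisons, as for 26.7%, 19.3% and 32.9% of all genes tested in LSK, neutrophil-primed and stem-like cells.

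Ndn differed by 0.59 ± 0.20 over all LSK cells (adjusted p = 0.152 in edgeR), with 4.29 and 4.89 CPM in the controls and 7.29 and 6.55 CPM in the knockouts, and by 0.11 ± 0.25 within stem-like cells (adjusted p = 0.823). Igf2r differed by 0.16 ± 0.27 over all LSK cells (adjusted p = 0.769), with control values of 4.24 and 6.51 CPM and knockout values of 5.28 and 6.6 CPM, and by -0.23 ± 0.30 in the lymphoid-primed gate where it was highest (adjusted p = 0.751). Impact differed by 0.29 ± 0.17 over all LSK cells (adjusted p = 0.392) and by 0.62 ± 0.24 in neutrophil-primed cells (adjusted p = 0.186), where its values were 16.3 and 20.0 against 28.9 and 23.4 CPM. Its largest difference was 0.75 ± 0.37 in erythroid-primed cells (adjusted p = 0.561 in edgeR), at 20.8 and 10.3 against 32.7 and 30.2 CPM. Control replicate 2 held 3 UMIs there. Both knockouts were above both controls in these gates, as for 19.3% and 21.9% of all genes tested in them. In the lymphoid-primed gate 0.713% of all genes were called (0.227% higher, 0.486% lower) and in the megakaryocyte-primed gate 0.603% (0.0847% higher, 0.519% lower). Of the 2 and 4 members tested there edgeR called 0, with 0 and 1 at an unadjusted p under 0.05. Among all genes 1670 of 9251 and 1298 of 9450 were under this limit.

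Other measures moved with the genotype. The 8 immediate early genes of the handling list summed to 5195 and 5429 CPM in control and 1342 and 1606 CPM in knockout stem-like cells. Of the 8, 7 were called lower there, beside 1.6% of all genes, with Egr1 at -2.93 ± 0.20 and Jun at -2.13 ± 0.19 (adjusted p = 0.000440 and 0.00220 in edgeR). The 10 stem markers that define the gate summed to 2555 and 3315 CPM in control and 1642 and 1706 CPM in knockout stem-like cells. Most of this was Ifitm1, at 1801 and 2413 against 991 and 1005 CPM. Hlf, Mecom, Mllt3 and Clec1a were also lower in both knockouts than in both controls. Mecom was at 168 and 181 against 112 and 111 CPM. Tgm2 went the other way, at 16.6 and 23.2 against 26.4 and 34.9 CPM. Procr, Fgd5, Ctnnal1 and Esam overlapped between the genotypes. Of the 10 markers 1 was called lower and 0 higher in edgeR. An unadjusted p under 0.05 was found for 4 of the 10, beside 2393 of all 10838 genes. The median log2 difference of the 10 was -0.33. Markers of stroma and endothelium, other cells of the marrow, summed to 20.0 to 23.6 CPM in stem-like cells of the 4 libraries. Of the 15 genes 13 had UMIs there, mostly Pdgfrb (179) and Sparc (93), while Dcn and Col3a1 had 0 UMIs and Cxcl12 had 6. Over all LSK cells 1 of the 8 that could be tested was called, beside 3.44% of all genes. It was Fabp4, higher in the knockouts by 3.01 ± 0.47 (adjusted p = 0.0246 in edgeR). The part of these measures in the Meg3 and Grb10 differences was not tested.

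Beside the 8 members, a list of other imprinted genes held 54 genes of the tables. Over all LSK cells 32 could be tested and 1 was called, near the 3.44% of all genes called there. It was Slc22a3, a transporter gene next to Igf2r, higher in the knockouts by 0.96 ± 0.14 (adjusted p = 0.0223 in edgeR). Within neutrophil-primed cells Slc22a3 (1.53 ± 0.28, adjusted p = 0.0144) and Dlk1 (2.98 ± 0.53, adjusted p = 0.0127) were higher and Tssc4 was lower (-1.04 ± 0.21, adjusted p = 0.0208). These were the calls among 20 tested, beside 3.1% of all genes (0.939% higher, 2.16% lower). Dlk1, which encodes a transmembrane protein of the Notch ligand type and shares its locus with Meg3, was at 0.526 and 0.900 CPM in control and 4.32 and 4.93 CPM in knockout neutrophil-primed cells. These levels rest on 42 UMIs in all. The markers of this gate also differed with the genotype, as given above, and their part in these differences was not tested. In the test of whether the genotype difference varied among the gates, Dlk1 was the only call among 24 listed imprinted genes (adjusted p = 0.0157, edgeR F test). This is near the 4.73% of all genes called there. In stem-like cells Dlk1 was at 3.57, 9.50, 5.16 and 6.90 CPM. Of the 26 listed genes tested there 0 were called in edgeR, beside 2.1% of all genes. An unadjusted p under 0.05 was found for 5 of them and for 2393 of all 10838 genes.

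Between the gates, the listed imprinted genes are read against the share of all genes called. Against neutrophil-primed cells 11 of 22 were higher and 2 lower in stem-like cells, where 24.8% of all genes were higher and 25% lower, among them Phlda2, a placental growth restrainer, by 3.09 ± 0.29 and Sgce, the epsilon-sarcoglycan gene, by 3.06 ± 0.32 (adjusted p = 6.7e-05 and 0.000116 in edgeR). Against lymphoid-primed cells 6 of 22 were higher and 1 lower (10% and 9.44% of all genes), with Phlda2 at 3.51 ± 0.35 and Slc22a3 at 1.40 ± 0.19. Against megakaryocyte-primed cells 3 were higher and 4 lower of 22 (10.3% and 8.52% of all genes), with Slc22a3 lower by -1.59 ± 0.10, and against erythroid-primed cells 4 were higher and 1 lower of 19 (15.9% and 15.4%), with Sgce at 2.22 ± 0.45 and Slc22a3 at -1.59 ± 0.19. The medians of these lists were 0.40, 0.19, 0.08 and 0.14. As for the members, the filter could admit a gene through the stem-like gate alone, so these counts and medians are no test of the list. Slc22a3 was at 28.3, 15.7, 37.2 and 36.5 CPM in stem-like cells and at 80.9, 82.3, 105.9 and 106.7 CPM in megakaryocyte-primed cells.

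**Figure D5:**
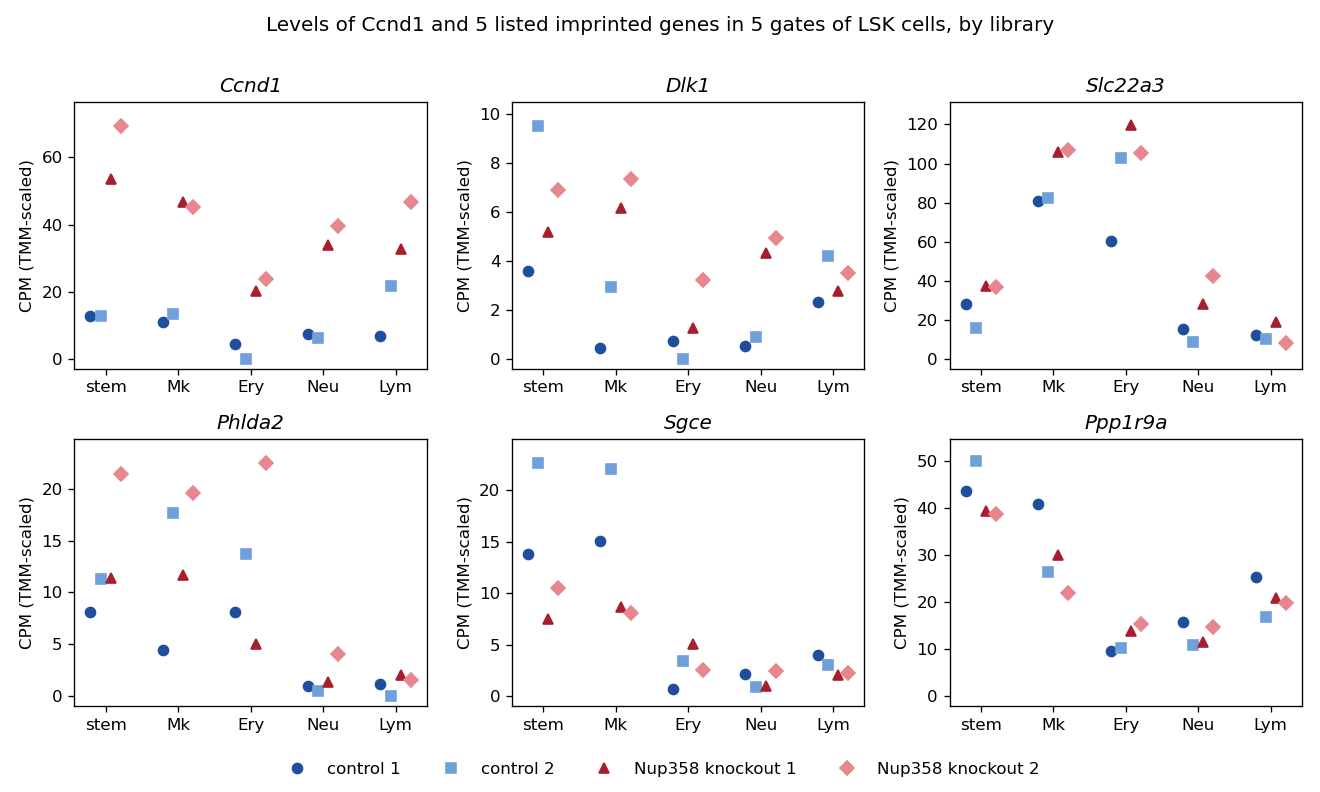
Levels in TMM-scaled CPM (vertical axes, linear, from 0) of Ccnd1 and 5 listed imprinted genes in the same 5 gates, where each point is 1 library. The knockout points of Ccnd1 lie above the control points in each gate, and Slc22a3 is highest in the Mk and Ery gates.

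The RNA of 26 partner genes linked to the members' functions was followed. They encode, among others, the IGF receptors and their ligands, the kinases that p57 inhibits, the cyclins and other kinase inhibitors. Over all LSK cells 1 of 24 tested was called, beside 3.44% of all genes. It was Ccnd1, the cyclin D1 gene, higher in the knockouts by 2.04 ± 0.16 (adjusted p = 0.00627 in edgeR). In stem-like cells Ccnd1 was at 12.8 and 12.8 CPM in the controls and 53.5 and 69.3 CPM in the knockouts, a difference of 2.20 ± 0.22 (adjusted p = 0.00344), and Ccne2, which encodes a cyclin E, was higher by 1.12 ± 0.24 (adjusted p = 0.0491). These were the calls among 23 partners, beside 2.1% of all genes. In megakaryocyte-primed cells Ccnd1 was the only call among 22 partners (1.93 ± 0.26), beside 0.603% of all genes. In neutrophil-primed cells 4 of 22 were called, beside 3.1% of all genes. Ccnd1 (2.45 ± 0.23), the cyclin D2 gene Ccnd2 (1.04 ± 0.16, adjusted p = 0.00663 in edgeR) and the ubiquitin ligase gene Nedd4 (0.94 ± 0.18, adjusted p = 0.0170) were higher, and Cdkn2c, which encodes the kinase inhibitor p18, was lower (-1.90 ± 0.41, adjusted p = 0.0343). Cdkn1b, which encodes p27, the sister inhibitor of p57, was lower in knockout lymphoid-primed cells by -1.17 ± 0.22 (adjusted p = 0.0491), with 81.5 and 109.4 against 40.2 and 46.7 CPM. It was the only call among 23 partners there, beside 0.713% of all genes. Of the 23 partners tested in erythroid-primed cells 0 were called in edgeR, beside 1.02% of all genes. An unadjusted p under 0.05 was found for 7 of the 23, beside 746 of all 8004 genes. The genotype difference varied among gates for 5 of 23 partners, beside 4.73% of all genes, among them Igf1r, the IGF1 receptor gene (adjusted p = 0.00189), at 91.1 and 109.6 against 62.5 and 64.0 CPM in stem-like cells and 58.9 and 54.9 against 68.2 and 82.6 CPM in neutrophil-primed cells.

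Grb10 and Impact had a mean of at least 10 CPM over the 20 sums of library and gate, and the genes with the most similar pattern were sought for them among 7949 genes. For Grb10 they were Tgfbr3, which encodes a TGF-beta coreceptor, with r = 0.92, and Ptpn12 and the transcription factor gene Gata2, both with r = 0.90 (Pearson, log2 CPM, n = 20 sums). For Impact they were Dnajb14 (r = 0.94), Zcchc2 (r = 0.90) and Ppp3r1 (r = 0.88), and between Grb10 and Impact r was 0.50. The 20 sums share 4 libraries and differ in depth, so these values describe the patterns only.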

How the data were processed

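UMI counts of single LSK cells were used as the authors deposited them, 4 matrices of 27998 genes by barcode. The authors aligned and counted the reads with Cell Ranger 3.1 on GRCm38/mm10, which counts unique molecular identifiers at the 3′ end of transcripts, and the counts were not normalized. Of the gene IDs, 27645 matched GENCODE M21. Cells passed with 200 or more genes and a mitochondrial share of 10% or less (24973 barcodes), and a barcode found in several libraries was kept in the library with its most UMIs. Doublets were kept and no caller was run.

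For gating, cells with at least 3000 UMIs were thinned to 3000. The stem-like gate needed at least 3 different stem markers, and the megakaryocyte-, erythroid-, neutrophil- and lymphoid-primed gates at least 2, 2, 10 and 3 marker UMIs. These limits were set after the marker counts were seen. Full counts were summed per library and gate and tested with edgeR 4.0.16 (quasi-likelihood, filterByExpr, TMM, Benjamini-Hochberg threshold 0.05) in R 4.3.3, with the library as a block between gates. DESeq2 1.42.0 was an alternative. A difference between gates is given as stem-like minus primed, and between genotypes as knockout minus control. Each standard error is the log2 difference divided by the square root of its F statistic. The scripts were tested on simulated data. Totals per library set the precision given in the report, and intervals and floors cover counting error only. Beside the members, the genes named from a list were at most the 4 with the largest change among those called, plus genes whose values bear on a member, some of them chosen after their values were seen. The members and lists were chosen with earlier results of these data known.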

Additional observations from a re-analysis of the deposited data

How the results depend on the processing

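Grb10 over all LSK cells kept its direction under each of the 10 alternatives tried, at 1.30 to 1.66 on the log2 scale. It kept its call in those that used all 4 libraries, some of which called more of all genes, as given below. The fits without a library leave a single library in a genotype, whose spread cannot be estimated, so calls in them are not counted here. Meg3 in stem-like cells kept its direction in each alternative. Among the alternatives with all 4 libraries, it lost its call when the gate was set without its most abundant marker (-2.67). The counts of values that follow include the fits without a library. Of the 591 values of members under an alternative, 497 kept their direction and side of the threshold, 35 came to pass it, 28 no longer passed it and 31 turned their sign. Among the values that turned, Grb10 between stem-like and megakaryocyte-primed cells was 0.16 with 1 UMI more in the gate and 0.00229 without the most abundant marker. Ndn in stem-like cells between the genotypes was -0.091 and -0.27 under the same changes. Impact between the genotypes was -0.114 in megakaryocyte-primed and -0.041 in lymphoid-primed cells with gating at 2000 UMIs, -0.049 in megakaryocyte-primed cells without the most abundant marker and -0.12 in lymphoid-primed cells with 1 UMI more. Impact between stem-like and megakaryocyte-primed cells was 0.15 with copied barcodes kept, 0.00519 with no filter, 0.027 with no replicate block, 0.00558 with 1 UMI more and 0.00383 without the marker. Igf2r between stem-like and erythroid-primed cells was 0.17 with copied barcodes kept, 0.18 in DESeq2 and 0.19 with gating at 2000 UMIs. The causes were not tested.

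Counts of genes called moved more. In DESeq2 they were 886 between the genotypes over all LSK cells, 32 in erythroid-primed cells, 858 between stem-like and megakaryocyte-primed and 990 between stem-like and lymphoid-primed cells. With no filter on low counts the genotype counts were 1933 in all LSK, 1245 in stem-like, 263 in megakaryocyte-primed, 220 in erythroid-primed, 931 in neutrophil-primed and 637 in lymphoid-primed cells, and 1164 across gates. With copied barcodes kept they were 135 in megakaryocyte-primed and 245 in lymphoid-primed cells. With gating at 2000 UMIs they were 754 in stem-like and 190 in neutrophil-primed cells. Without the most abundant marker they were 55 in stem-like, 15 in erythroid-primed and 0 in lymphoid-primed cells, 446 between stem-like and lymphoid-primed cells and 240 across gates.

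The deviations of same-numbered libraries correlated at -0.0571 over genes, and no label ties equal replicate numbers to a batch. A single correlation cannot exclude a shared batch, so whether the numbers pair the libraries is not known. The main fits between the genotypes used no replicate block. With the replicate block the genotype counts were 1255 in all LSK, 239 in stem-like, 11 in megakaryocyte-primed, 137 in erythroid-primed, 572 in neutrophil-primed and 330 in lymphoid-primed cells. With no replicate block the counts between stem-like and primed cells were 401 for megakaryocyte-primed, 1899 for erythroid-primed, 2866 for neutrophil-primed and 459 for lymphoid-primed cells.

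Leaving out each library in turn, where the lone library of a genotype is assumed to vary like the others, gave genotype counts of 365 to 2944 in all LSK, 129 to 2798 in stem-like, 17 to 458 in megakaryocyte-primed, 0 to 276 in erythroid-primed, 247 to 1677 in neutrophil-primed and 27 to 1180 in lymphoid-primed cells. The counts between stem-like and primed cells were 1152 to 1837, 1721 to 2883, 3497 to 4874 and 1252 to 1675 for the same order of primed gates, and 160 to 862 across gates. Among members, sign turns were seen for Igf2r over all LSK (-0.16 to 0.50) and lymphoid-primed cells (-0.71 to 0.046), Ndn in stem-like cells (-0.12 to 0.37), Cdkn1c in megakaryocyte-primed cells (-0.064 to 0.77), and Impact in stem-like (-0.18 to 0.011), megakaryocyte-primed (-0.024 to 0.22) and lymphoid-primed cells (-0.019 to 0.46) between the genotypes. Between stem-like and megakaryocyte-primed cells Impact was at -0.055 to 0.045. Between stem-like and erythroid-primed cells Impact was at -0.051 to 0.28 and Igf2r at -0.35 to 0.71, the highest without control replicate 1.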
